A study of Homo sapiens with 8 samples.

Results

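Chromosomal DNA is copied once per cell cycle by a machinery that is assembled stepwise, and the RNAs of 50 genes of this machinery were followed on the arrays: the origin recognition complex, the loading factors CDC6 and CDT1 with their inhibitor geminin, the MCM2-7 helicase and its activators, the replicative polymerases, the sliding clamp and its loader, the enzymes that finish lagging strands, the single-strand binding protein RPA, 4 enzymes of deoxynucleotide supply, and DTL and TIPIN. The genes were taken by name and sorted into 11 groups by role. All probes other than controls that carry one of these names were taken, which gave 64 of the 50599 probes on the array. Of these, 63 were among the 28677 tested probes and every one of the 50 genes had a tested probe, and the remaining probe, a probe of DBF4, was not well above background on any array. Each gene is represented by its brightest tested probe, and all 50 of these probes were well above background on all 8 arrays.

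The cells were HCT-116, a human colorectal cancer line, grown in DMEM with foetal bovine serum, and the question of the comparison was how acute inhibition of CDK2, its genetic loss, and acquired resistance to its inhibitor differ in gene expression. The 4 groups were untreated parental cells (WT), parental cells given 20 µM of the inhibitor NU6102 for 24 h (WT+NU6102), cells with a CDK2 knockout (CDK2 KO), and cells resistant to NU6102 that were kept in 50 µM of it (R50). The parental and CDK2-/- lines were bought from a supplier, and R50 cells came from colonies that grew in the drug; whether those profiled were of 1 clone is not given in the sources used here. WT and CDK2 KO received no drug and R50 was maintained in it, so in R50 resistance and ongoing exposure cannot be told apart. NU6102 is a purine inhibitor of CDK1 and CDK2. Total RNA of 2 biological replicates per group was labelled with Cy3 and hybridised to Agilent arrays. Values are given as log2 levels, the log2 of the background-subtracted signal less the 75th percentile of the same array, so that 0 is that percentile, and a difference of 1 is a doubling. Levels of different probes cannot be compared with each other.

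As background, origins are licensed in G1 phase when the origin recognition complex, CDC6 and CDT1 load the MCM2-7 helicase onto DNA, and geminin blocks CDT1 afterwards so that no origin is licensed again. In S phase the kinases CDC7-DBF4 and CDK2 turn the loaded helicase into an active fork by recruiting CDC45 and GINS. Many of the genes are transcribed in G1/S under E2F factors, which are held back by the retinoblastoma protein until cyclin-dependent kinases phosphorylate it, and their RNA is therefore widely read as a sign of S-phase entry in proliferating epithelial and tumour cells.

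The targeted gene was lower in the knockout. The level of CDK2 was -0.76 and -0.76 on the WT arrays, -0.44 and -0.42 in WT+NU6102, -1.56 and -1.51 in CDK2 KO and -1.10 and -1.09 in R50, with the lowest values in CDK2 KO and no overlap between any groups. The difference of CDK2 KO from WT was -0.77 ± 0.04 (log2 fold change ± SE throughout; limma, adjusted p = 0.000268), and the probe remained well above background there. The probe lies at chr12:56365789-56365848 (hg19), and where the deletion lies relative to it is not given in the sources used here. Of 9 epithelial markers, 7 were well above background on all 8 arrays, including EPCAM, CDH1 and KRT8, whereas CDH17 and VIL1 were not on any array. Of 8 markers of other cell types, ALB and COL3A1 were well above background on none and COL1A1, PTPRC and VWF on all. The 4 of these markers with a tested probe (COL1A1, PTPRC, VWF and CD3E) had a median log2 level of -2.96 and -2.86 in WT, -3.49 and -3.36 in WT+NU6102, -2.52 and -2.61 in CDK2 KO and -2.58 and -2.51 in R50, and their part in the results was not tested. The arrays of a group correlated with r between 0.9937 and 0.9958 over the tested probes. WT and WT+NU6102 lay on slide 2, CDK2 KO and R50 on slide 1. The comparison of treated with untreated WT and that of R50 with CDK2 KO therefore lie within a slide, and in CDK2 KO or R50 against WT and in R50 against WT+NU6102 the slide and the group cannot be told apart. RNA came from whole cultures, in which fewer cells in a phase and less RNA per cell cannot be told apart.

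Most of the replication genes were higher after acute NU6102, fewer in CDK2 KO, and none in R50 cells. In WT+NU6102, 31 of the 50 genes were higher and 8 lower than in WT (limma, adjusted p under 0.05 with no minimum fold change), beside 30.3% higher and 24.2% lower among the 14216 protein-coding genes tested. The median log2 fold change was 0.23, against 0.05 over all genes, and the values ran from -0.65 for POLE2 to 1.10 for RRM2. In 34 of the 50 genes (68%) both treated arrays lay above both WT arrays, as they did in 44.4% of all genes, in 10 (20%) both lay below, against 36.1%, and in 6 they overlapped. Of the 39 calls, 25 held whichever array was left out, and without WT replicate 1 the count fell to 25. With quantile normalisation in place of the 75th percentile, 20 genes were higher and 11 lower, and the median was 0.11. Among the 14216 genes 3624 were then higher and 3780 lower, with a median of 0.01.

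In CDK2 KO, 14 genes were higher and 5 lower than in WT, beside 20.1% and 17% of all genes, and the median was 0.11 against 0.02. The values ran from -0.41 for POLA2 to 0.64 for CDT1. The 19 called genes fell to 12 without WT replicate 1 and to 10 without either CDK2 KO array, and 9 held whichever array was left out: CDC6, CDT1, GINS3, POLD3, RRM1 and RRM2, which were higher, and POLA2, RPA3 and TK1, which were lower. The share of genes called in the set lay near that over all genes.

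In R50, 32 genes were lower than in WT and 0 were higher, beside 16.1% lower and 12.6% higher among all genes. The log2 fold change was below 0 for all 50 genes, from -0.69 for POLE2 to -0.02 for RRM2, with a median of -0.28 against -0.04 over all genes. Both R50 arrays lay below both WT arrays in 43 genes (86%), beside 40.8% of all genes, and the groups overlapped in 7. The differences were small, and the count of called genes was 13 without WT replicate 1, 14 without WT replicate 2, 16 without R50 replicate 1 and 21 without R50 replicate 2, each time with all called genes lower. The calls that held whichever array was left out were those of GINS1, CDC7, POLA1, POLA2, POLE2, RFC3, RFC5, FEN1, RRM1, DTL and TIPIN, 11 in all. In 32 of the 50 genes (64%) both R50 arrays lay below the 6 other arrays, as they did in 19.9% of all genes. R50 had the lowest group mean of the 4 groups in 42 genes (84%) and the highest in 0, beside 31.9% and 18.9% of all genes. WT+NU6102 had the highest in 31 (62%, beside 39.4%), CDK2 KO in 14 (28%, beside 27.9%) and WT in 5 (10%, beside 13.8%). With quantile normalisation 26 genes were lower in R50 than in WT and 0 higher, beside 2016 lower and 1941 higher among the 14216 genes. The median was then -0.22 against -0.02, and RRM2 (0.0043) and LIG1 (0.0094) were not below 0.

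**Figure D1:**
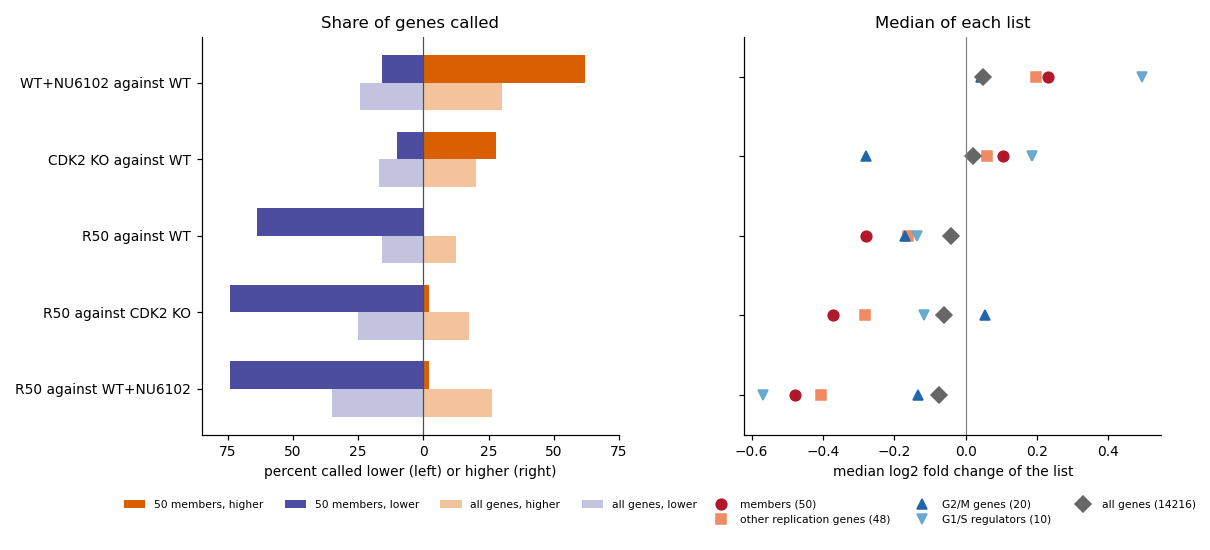
The left panel gives the percent of genes called lower (bars to the left) or higher (bars to the right) in 5 comparisons, for the 50 replication genes and for all 14216 genes tested; the right panel gives the median log2 fold change of each gene list. The replication genes lean to higher values in WT+NU6102 and to lower values in each comparison of R50.

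Over all 4 groups together, 22 of the 50 genes differed by the moderated F-test at an adjusted p under 0.001, beside 28.6% of all genes. That count was between 0 and 3 when any of the 8 arrays was left out. By their brightest probes, ORC2 and ORC3 were called in none of the 5 comparisons. A further 4 genes, POLD2, POLE, LIG1 and RPA2, were called in none of the comparisons with WT. With quantile normalisation ORC3 and LIG1 were called lower in WT+NU6102 and POLD2 higher in CDK2 KO. The second tested probe of RPA2 was called lower in R50 than in WT.

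**Figure D2:**
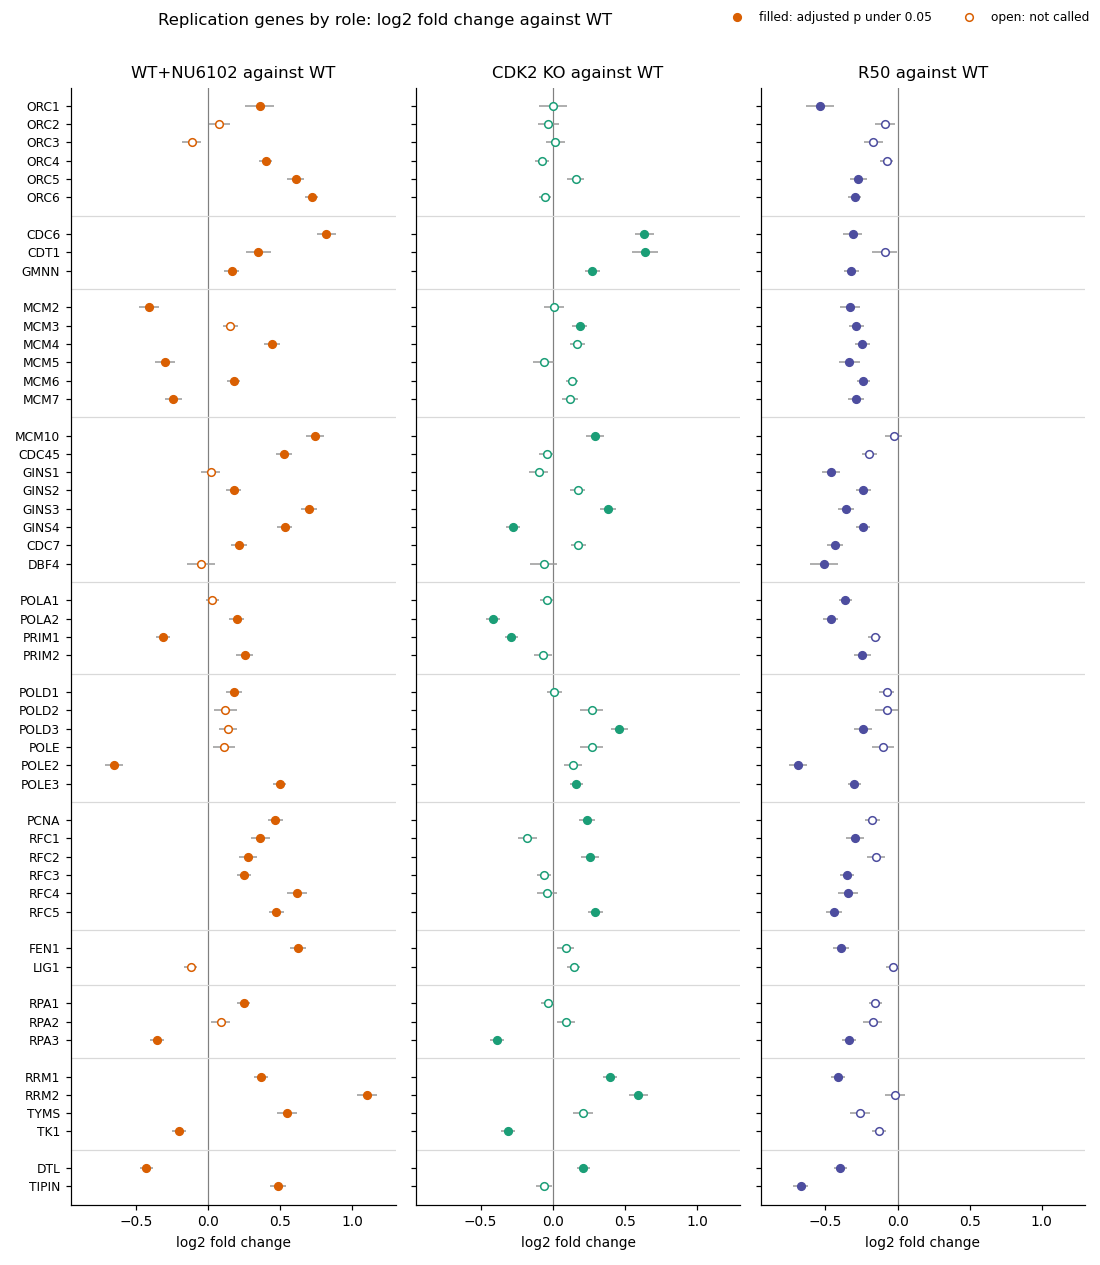
Log2 fold change against WT of each gene (horizontal axis), with bars of 1 standard error, in WT+NU6102, CDK2 KO and R50; genes are ordered by role and lines part the roles. Filled points were called at an adjusted p under 0.05. Points scatter to both sides in the first 2 panels and lie left of 0 for all genes in R50.

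E2F-site letters, which the choice of genes did not use, were more frequent in the promoters of the set than in all promoters, and 22 of the 44 genes with a promoter entry had no match. RefSeq entries (GRCh38.p14, 250 bases before to 50 after each start) were matched for 44 of the 50 genes, with 59 promoters, since some genes have several starts, and not for GINS4, MCM4, MCM5, POLD3, RPA2 and RPA3. An E2F site, searched as TTTCCCGC, TTTGGCGC, TTTCGCGC or TTTGCCGC on either strand, was held by 22 of the 59 promoters (37.3%), which belong to 22 of the 44 genes, and by 3.3% of all 35116 promoters of this length. The CCAAT box, CCAAT on either strand, was in 52.5% of the promoters of the set and 34.6% of all, and the GC box, GGGCGG on either strand, in 72.9% and 45.0% of all. A promoter can hold several of these motifs. The 35116 promoters were not matched to those of the set in GC content, and its part in these shares was not tested. Stretches of 100 bases from 8 of the promoters are printed because these genes span the steps from licensing to fork protection and include POLA2, DTL and TIPIN, whose calls in R50 held whichever array was left out. They read 5′ to 3′ on the strand of the gene and lie wholly before a RefSeq start, and capitals mark the E2F letters, which overlap on opposite strands in MCM6 and TIPIN.
CDT1, chr16:88803689-88803788, plus strand: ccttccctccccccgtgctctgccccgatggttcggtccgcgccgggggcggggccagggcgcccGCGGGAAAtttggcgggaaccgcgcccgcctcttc
MCM6, chr2:135876504-135876603, minus strand: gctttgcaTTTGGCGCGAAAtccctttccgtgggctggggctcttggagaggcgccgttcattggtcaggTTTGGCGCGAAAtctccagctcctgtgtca
MCM7, chr7:100101498-100101597, minus strand: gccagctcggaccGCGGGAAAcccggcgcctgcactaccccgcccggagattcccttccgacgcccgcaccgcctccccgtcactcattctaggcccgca
POLA2, chr11:65261862-65261961, plus strand: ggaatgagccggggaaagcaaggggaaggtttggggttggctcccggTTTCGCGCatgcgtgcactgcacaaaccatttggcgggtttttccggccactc
PCNA, chr20:5126623-5126722, minus strand: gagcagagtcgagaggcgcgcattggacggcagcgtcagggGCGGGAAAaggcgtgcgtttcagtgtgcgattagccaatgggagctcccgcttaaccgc
RFC3, chr13:33818049-33818148, plus strand: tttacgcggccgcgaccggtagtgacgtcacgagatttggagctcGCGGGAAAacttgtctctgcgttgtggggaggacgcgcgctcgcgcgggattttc
DTL, chr1:212035648-212035747, plus strand: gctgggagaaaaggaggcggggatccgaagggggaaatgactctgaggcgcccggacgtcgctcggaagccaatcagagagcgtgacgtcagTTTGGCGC
TIPIN, chr15:66356686-66356785, minus strand: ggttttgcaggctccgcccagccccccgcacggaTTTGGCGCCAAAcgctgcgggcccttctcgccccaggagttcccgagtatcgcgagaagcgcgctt

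The stretch of MCM6 holds 4 matches in 2 places, that of TIPIN 2 overlapping matches, and the others 1 each. In R50 against WT the median log2 fold change was -0.32 for the 22 genes with a match, of which 16 were lower, and -0.22 for the 22 without, of which 11 were lower. In WT+NU6102 the median was 0.17 with a match and 0.37 without, and in CDK2 KO it was 0.16 and -0.01. Binding was not measured.

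The origin recognition complex, the 6 proteins that mark origins, divided into members that rose with acute NU6102 and members that did not. ORC1, ORC4, ORC5 and ORC6 rose, and ORC2 and ORC3 were not called, with log2 fold changes of 0.08 and -0.11. With quantile normalisation ORC3 was called lower, at -0.23 (adjusted p = 0.042). The second tested probe of ORC4 was not called, at 0.07 (adjusted p = 0.682), beside 0.40 for the brightest. ORC6, the subunit least tightly tied to the complex, was at 0.63 and 0.61 in WT, 1.33 and 1.35 in WT+NU6102, 0.58 and 0.56 in CDK2 KO and 0.30 and 0.34 in R50. The treated arrays stood above all others and the R50 arrays below, without overlap. ORC6 rose by 0.72 ± 0.04 (adjusted p = 0.000245) in WT+NU6102 and was -0.30 ± 0.04 (adjusted p = 0.00941) in R50, a call that was lost without WT replicate 1 (fold changes from -0.32 to -0.28 over the 8 fits that each leave out an array).

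ORC1, whose protein comes and goes within the cell cycle in human cells, was the member furthest below WT in R50. Its levels were 0.11 and 0.25 in WT, 0.47 and 0.61 in WT+NU6102, 0.16 and 0.21 in CDK2 KO and -0.46 and -0.24 in R50. The R50 arrays lay below every other array, and WT and CDK2 KO overlapped. The change in R50 was -0.54 ± 0.10 (adjusted p = 0.0173), lost without either WT array or R50 replicate 1 (range -0.65 to -0.43), and that in WT+NU6102 was 0.36 ± 0.10 (adjusted p = 0.0313), which held only where the array left out was of R50 (range 0.29 to 0.43). No member was called in CDK2 KO, where the 6 log2 fold changes ran from -0.08 to 0.16. ORC1, ORC5 and ORC6 were lower in R50 than in WT, and the call of ORC5 (-0.27) was lost without any array but WT replicate 1 (range -0.33 to -0.21) and with quantile normalisation (-0.21).

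CDC6, CDT1 and GMNN, the loaders of the helicase and the inhibitor of CDT1, were all 3 higher than WT with acute NU6102, of which 1 was called with quantile normalisation, and all 3 were higher in CDK2 KO. CDC6, the ATPase that recruits the helicase to the origin, was at -2.14 and -2.23 in WT, -1.40 and -1.32 in WT+NU6102, -1.53 and -1.56 in CDK2 KO and -2.55 and -2.43 in R50. Its 4 groups did not overlap, with WT+NU6102 highest and R50 lowest. It rose by 0.82 ± 0.07 (adjusted p = 0.000474) with the drug and by 0.64 ± 0.07 (adjusted p = 0.0018) with the knockout, and both calls held whichever array was left out. In R50 it was -0.31 ± 0.07 (adjusted p = 0.0264) from WT, a call lost without either WT array, either CDK2 KO array or R50 replicate 1 (range -0.37 to -0.25) and with normexp background correction (-0.15, adjusted p = 0.104). The CDC6 probe lies at chr17:38459354-38459413 (hg19).

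CDT1, which brings the helicase to CDC6 and is destroyed in S phase, had levels of 5.45 and 5.67 in WT, 5.91 and 5.91 in WT+NU6102, 6.17 and 6.23 in CDK2 KO and 5.53 and 5.40 in R50. Here CDK2 KO stood highest, and WT and R50 overlapped. The rise in CDK2 KO was 0.64 ± 0.09 (adjusted p = 0.0046) and held whichever array was left out. That in WT+NU6102, 0.35 ± 0.09 (adjusted p = 0.0236), was lost without WT replicate 1 or either treated array (range 0.24 to 0.46) and with quantile normalisation (0.17). R50 was -0.09 ± 0.09 from WT (adjusted p = 0.515).

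GMNN, which encodes geminin, was at 4.07 and 4.09 in WT, 4.24 and 4.24 in WT+NU6102, 4.36 and 4.36 in CDK2 KO and 3.81 and 3.71 in R50. All 4 groups were apart, in the order R50, WT, WT+NU6102 and CDK2 KO from low to high. Its rise with the drug was 0.16 ± 0.05 (adjusted p = 0.0472), which was kept without an R50 array and lost without any of the 6 others (range 0.15 to 0.17) and which was 0.03 with quantile normalisation. It was higher in CDK2 KO by 0.27 ± 0.05 (adjusted p = 0.0123), lost when any WT or CDK2 KO array was left out (range 0.26 to 0.29), and -0.32 ± 0.05 in R50 (adjusted p = 0.0119), lost without either WT array (range -0.37 to -0.27).

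**Figure D3:**
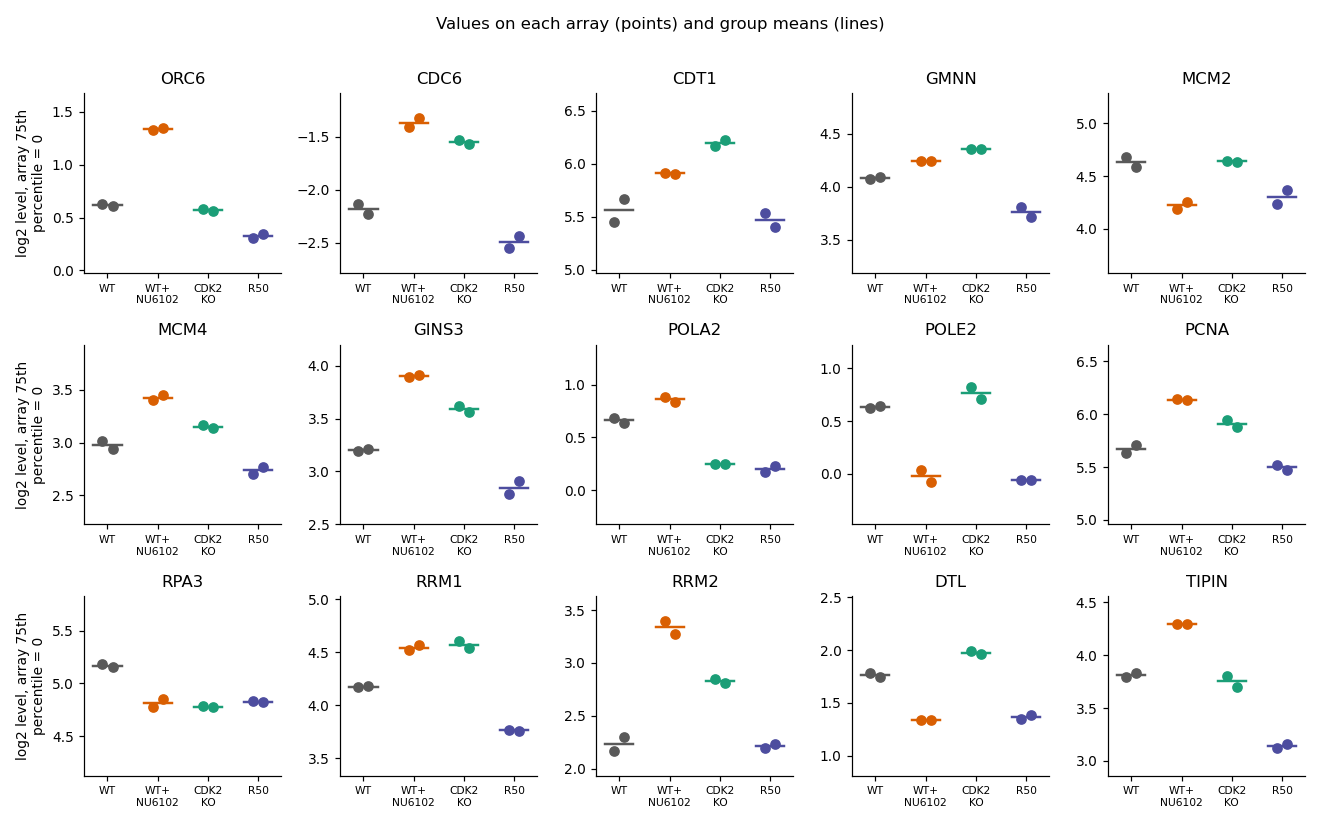
Log2 level of 15 genes on each of the 8 arrays (points) with group means (lines), the 75th percentile of each array being 0; every panel spans the same range of log2 units but not the same levels. CDC6, RRM1 and PCNA are highest in WT+NU6102 or CDK2 KO and lowest in R50, whereas POLE2, DTL and MCM2 are low in both WT+NU6102 and R50.

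The 6 subunits of the MCM2-7 helicase, which form a single ring, moved in different directions with acute NU6102 and in the same direction in R50. With the drug MCM4 and MCM6 were higher, MCM2, MCM5 and MCM7 lower and MCM3 not called (0.16). The calls of MCM5, MCM6 and MCM7 were lost when any array of WT or WT+NU6102 was left out (ranges -0.33 to -0.27, 0.17 to 0.19 and -0.26 to -0.22), and MCM6 was 0.04 with quantile normalisation and then not called. MCM2 was at 4.68 and 4.58 in WT, 4.19 and 4.26 in WT+NU6102, 4.64 and 4.64 in CDK2 KO and 4.24 and 4.37 in R50. WT and CDK2 KO overlapped, as did WT+NU6102 and R50, which lay below them. It fell by 0.41 ± 0.07 (adjusted p = 0.00472) in WT+NU6102, whichever array was left out, and was -0.33 ± 0.07 (adjusted p = 0.0224) in R50, lost without either WT array or R50 replicate 1 (range -0.39 to -0.27) and with quantile normalisation.

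MCM4 was the subunit that rose most. Its levels were 3.02 and 2.94 in WT, 3.40 and 3.45 in WT+NU6102, 3.16 and 3.14 in CDK2 KO and 2.70 and 2.77 in R50, with no overlap of the groups. It rose by 0.44 ± 0.05 (adjusted p = 0.00156) with NU6102, which held whichever array was left out and was 0.25 with quantile normalisation. MCM5 was at 4.75 and 4.80 in WT, 4.46 and 4.50 in WT+NU6102, 4.68 and 4.75 in CDK2 KO and 4.36 and 4.53 in R50, and WT+NU6102 and R50 overlapped. Its difference in R50, -0.33 ± 0.07 (adjusted p = 0.0276), was the furthest from WT among the 6 and was lost without any array but R50 replicate 2 (range -0.42 to -0.25) and with quantile normalisation (-0.28). The second tested probes of MCM5 and MCM7 gave calls in the same direction as the brightest one in both WT+NU6102 and R50.

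MCM3 was the only subunit called in CDK2 KO, with levels of 6.04 and 6.07 in WT, 6.17 and 6.26 in WT+NU6102, 6.24 and 6.25 in CDK2 KO and 5.78 and 5.75 in R50. CDK2 KO and WT+NU6102 overlapped and R50 was lowest. The rise of 0.19 ± 0.05 (adjusted p = 0.0427) was lost whichever of the 8 arrays was left out (range 0.17 to 0.20), with normexp (0.16) and with the authors' values (0.17). With quantile normalisation MCM4 was called higher in CDK2 KO as well, at 0.19 (adjusted p = 0.049). All 6 subunits were lower in R50 than in WT, with log2 fold changes of -0.33 to -0.24, but each of these calls was lost without WT replicate 1, and with quantile normalisation those of MCM3, MCM6 and MCM7 were made. Against CDK2 KO, on the same slide, all 6 were lower in R50 as well, with log2 fold changes of -0.47 to -0.27. The calls of MCM3, MCM4, MCM6 and MCM7 held whichever array was left out. That of MCM5 was not made with quantile normalisation (-0.20).

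Of the 8 genes that activate the helicase or fire origins, 6 rose with acute NU6102 and none fell, although with quantile normalisation 4 were called higher and GINS2 was -0.04. MCM10, a scaffold of the activated helicase, was at -0.92 and -0.77 in WT, -0.11 and -0.10 in WT+NU6102, -0.54 and -0.56 in CDK2 KO and -0.89 and -0.85 in R50. WT and R50 overlapped, CDK2 KO lay above both, and WT+NU6102 stood highest. The rises were 0.74 ± 0.06 (adjusted p = 0.000509) with the drug, kept whichever array was left out, and 0.30 ± 0.06 (adjusted p = 0.0181) with the knockout, lost without WT replicate 1 or either CDK2 KO array (range 0.22 to 0.37). CDC45, the helicase cofactor, rose with the drug (0.53) and was not called against WT in CDK2 KO (-0.04) or R50 (-0.19).

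The 4 genes of the GINS complex, which travels with the helicase, were alike in R50 but differed with the drug and in CDK2 KO. GINS3 was at 3.20 and 3.21 in WT, 3.89 and 3.91 in WT+NU6102, 3.61 and 3.56 in CDK2 KO and 2.79 and 2.91 in R50, with all groups apart. It rose by 0.70 ± 0.06 (adjusted p = 0.000492) with the drug and by 0.38 ± 0.06 (adjusted p = 0.00602) with the knockout, both kept whichever array was left out, and was -0.36 ± 0.06 (adjusted p = 0.012) in R50, lost without either WT array (range -0.42 to -0.30). GINS4 also rose with the drug (0.53) but was lower in CDK2 KO (-0.28), a call lost without WT replicate 2 or either CDK2 KO array (range -0.31 to -0.24). GINS1 was not called with the drug (0.02) and was lower in R50 (-0.46). All 4 were lower in R50 than in WT, and of these calls that of GINS1 held whichever array was left out, whereas those of GINS2 and GINS4 were lost when any WT, CDK2 KO or R50 array was left out (ranges -0.25 to -0.22 and -0.27 to -0.21).

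DBF4 and CDC7 encode the regulatory and catalytic subunits of the kinase that fires licensed origins. DBF4 was at 0.39 and 0.20 in WT, 0.26 and 0.23 in WT+NU6102, 0.33 and 0.13 in CDK2 KO and -0.19 and -0.24 in R50, and the R50 arrays lay below the others, which overlapped. It was -0.51 ± 0.09 in R50 (adjusted p = 0.0177), lost without WT replicate 1 or either R50 array (range -0.61 to -0.41), and not called elsewhere against WT. CDC7 was -0.43 in R50, kept whichever array was left out, and 0.22 in WT+NU6102, lost when any WT or WT+NU6102 array was left out (range 0.21 to 0.23) and with quantile normalisation (0.09).

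The polymerase alpha-primase starts each new strand, and 2 of its 4 genes, POLA2 and PRIM1, were lower in CDK2 KO. POLA2, its regulatory subunit, was at 0.69 and 0.64 in WT, 0.88 and 0.84 in WT+NU6102, 0.25 and 0.25 in CDK2 KO and 0.17 and 0.23 in R50. The groups did not overlap, with CDK2 KO and R50 low and WT+NU6102 high. POLA2 fell by 0.41 ± 0.05 (adjusted p = 0.00274) in CDK2 KO and by 0.47 ± 0.05 (adjusted p = 0.00354) in R50, and both calls held whichever array was left out. The rise with the drug, 0.20 ± 0.05 (adjusted p = 0.0216), was lost when any WT or WT+NU6102 array was left out (range 0.17 to 0.22) and with quantile normalisation (0.14).

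PRIM1, the catalytic primase subunit, was at 3.08 and 3.09 in WT, 2.78 and 2.77 in WT+NU6102, 2.82 and 2.78 in CDK2 KO and 2.89 and 2.96 in R50. WT was above all the other arrays, and WT+NU6102 and CDK2 KO overlapped. It fell by 0.31 ± 0.05 (adjusted p = 0.00368) with the drug, kept whichever array was left out and -0.47 with quantile normalisation, and by 0.29 ± 0.05 (adjusted p = 0.00812) in CDK2 KO, lost without CDK2 KO replicate 2 (range -0.31 to -0.27). PRIM2, the other primase subunit, was 0.25 in WT+NU6102, lost when any WT or WT+NU6102 array was left out (range 0.23 to 0.28), and -0.24 in R50, lost whichever of the 8 arrays was left out (range -0.28 to -0.21). Neither call of PRIM2 was made with quantile normalisation (0.08 and -0.22). The catalytic POLA1 was -0.36 in R50, kept whichever array was left out, and was not called with the drug (0.03). With quantile normalisation POLA1 was called lower with the drug, at -0.14 (adjusted p = 0.042). Over the 4 genes the median in WT+NU6102 was 0.11, and -0.03 with quantile normalisation.

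Among the 6 genes of polymerases delta and epsilon, which extend the lagging and leading strands, POLE2 stood apart. This accessory subunit of polymerase epsilon, with a probe at chr14:50122411-50122470 (hg19), was at 0.62 and 0.64 in WT, 0.04 and -0.08 in WT+NU6102, 0.83 and 0.71 in CDK2 KO and -0.06 and -0.06 in R50. WT+NU6102 and R50 overlapped, and lay wholly below WT and CDK2 KO. POLE2 fell by 0.65 ± 0.06 (adjusted p = 0.000824) with the drug and by 0.69 ± 0.06 (adjusted p = 0.00236) in R50, kept whichever array was left out. It was thereby the gene of the set furthest below WT in both groups.

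POLE3, a histone-fold subunit of the same polymerase, rose with the drug (0.50) and was lower in R50 (-0.30), the latter lost without WT replicate 2 (range -0.32 to -0.28), and the catalytic POLE was not called against WT (0.11 in WT+NU6102). POLD3, a subunit of polymerase delta, was at 1.66 and 1.73 in WT, 1.86 and 1.82 in WT+NU6102, 2.22 and 2.10 in CDK2 KO and 1.47 and 1.44 in R50. CDK2 KO stood highest and R50 lowest, without overlap. The rise in CDK2 KO was 0.46 ± 0.06 (adjusted p = 0.0038) and held whichever array was left out. POLD3 was -0.24 ± 0.06 in R50 (adjusted p = 0.0415), lost whichever of the 8 arrays was left out (range -0.27 to -0.21), with normexp (-0.16) and with quantile normalisation (-0.21). POLD1, the catalytic subunit of polymerase delta, was 0.18 in WT+NU6102, a call also lost whichever of the 8 arrays was left out (range 0.14 to 0.22) and, at 0.017, with quantile normalisation.

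All 6 genes of the sliding clamp and its loader rose with acute NU6102, with log2 fold changes of 0.25 to 0.62, and 4 of them were called with quantile normalisation. RFC2 (0.28) and RFC3 (0.25) were not, and their calls were lost without WT replicate 1 or WT+NU6102 replicate 2 (ranges 0.25 to 0.31 and 0.23 to 0.26) and that of RFC2 also without WT replicate 2. PCNA, the clamp that tethers polymerases to DNA, was at 5.63 and 5.71 in WT, 6.14 and 6.13 in WT+NU6102, 5.94 and 5.88 in CDK2 KO and 5.52 and 5.47 in R50. The 4 groups did not overlap. It rose by 0.47 ± 0.05 (adjusted p = 0.00133) with the drug, kept whichever array was left out, and by 0.24 ± 0.05 (adjusted p = 0.0225) in CDK2 KO, lost without WT replicate 1 or either CDK2 KO array (range 0.20 to 0.27). In R50 it was -0.17 ± 0.05 from WT and missed the threshold (adjusted p = 0.0691). All 3 probes of PCNA were called higher in both WT+NU6102 and CDK2 KO and none was called in R50.

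RFC4 and RFC5 are small subunits of the clamp loader. RFC4 was at 3.96 and 3.88 in WT, 4.48 and 4.59 in WT+NU6102, 3.94 and 3.82 in CDK2 KO and 3.55 and 3.61 in R50, and WT and CDK2 KO overlapped. It rose by 0.62 ± 0.07 with the drug (adjusted p = 0.00138), kept whichever array was left out. RFC5 was at 4.32 and 4.38 in WT, 4.83 and 4.82 in WT+NU6102, 4.67 and 4.62 in CDK2 KO and 3.87 and 3.95 in R50, with all groups apart. It rose in CDK2 KO by 0.30 ± 0.05 (adjusted p = 0.0112), lost without WT replicate 1 or CDK2 KO replicate 1 (range 0.27 to 0.32), and fell in R50 by 0.44 ± 0.05 (adjusted p = 0.00531), kept whichever array was left out. The probes of RFC3 agreed in direction but not in size, at 0.25 and 0.83 in WT+NU6102.

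FEN1, the flap nuclease that trims Okazaki fragments, was at 1.94 and 1.95 in WT, 2.57 and 2.58 in WT+NU6102, 2.04 and 2.03 in CDK2 KO and 1.49 and 1.62 in R50. The groups were apart, with WT+NU6102 highest and R50 lowest. It rose by 0.62 ± 0.06 (adjusted p = 0.00064) with the drug and fell by 0.39 ± 0.06 (adjusted p = 0.00841) in R50, and both held whichever array was left out. LIG1, the ligase that seals the fragments, was not called against WT, at -0.12 in WT+NU6102, 0.15 in CDK2 KO and -0.03 in R50. With quantile normalisation LIG1 was called lower in WT+NU6102, at -0.32 (adjusted p = 0.00417).

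RPA3, the small subunit of replication protein A, was lower than WT in each of the other groups. It was at 5.18 and 5.15 in WT, 4.78 and 4.85 in WT+NU6102, 4.79 and 4.77 in CDK2 KO and 4.83 and 4.83 in R50. The WT arrays lay above the 6 others, among which WT+NU6102 overlapped both CDK2 KO and R50. RPA3 fell by 0.35 ± 0.05 (adjusted p = 0.00255), by 0.39 ± 0.05 (adjusted p = 0.00328) and by 0.34 ± 0.05 (adjusted p = 0.00842) in that order, and the call in R50 was lost without WT replicate 1 (range -0.35 to -0.32). RPA1, the large subunit, rose with the drug (0.25; 0.11 and not called with quantile normalisation). Its second tested probe was not called, at -0.15 (adjusted p = 0.585), nor was the mean of its probes, at 0.05. RPA2 was not called either (0.09), and its second tested probe was called lower in R50 than in WT. The 3 comparisons of RPA3 share the WT arrays.

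Ribonucleotide reductase, the rate-limiting enzyme of deoxynucleotide synthesis, had both subunits higher with acute NU6102 and in CDK2 KO, and only the large one was called in R50. RRM2, the small subunit, was at 2.17 and 2.30 in WT, 3.40 and 3.28 in WT+NU6102, 2.84 and 2.81 in CDK2 KO and 2.20 and 2.23 in R50. WT and R50 overlapped, CDK2 KO lay above them and WT+NU6102 above all. It rose by 1.10 ± 0.07 (adjusted p = 0.00024) with the drug, the only gene of the set to reach a log2 fold change of 1 against WT, and by 0.59 ± 0.07 (adjusted p = 0.00239) in CDK2 KO, both kept whichever array was left out. R50 was -0.02 ± 0.07 from WT (adjusted p = 0.868). The probe lies at chr2:10270487-10270546 (hg19).

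RRM1, the large subunit, was at 4.17 and 4.18 in WT, 4.52 and 4.57 in WT+NU6102, 4.61 and 4.54 in CDK2 KO and 3.77 and 3.76 in R50. WT+NU6102 and CDK2 KO overlapped above WT, and R50 lay below. RRM1 rose by 0.37 ± 0.05 (adjusted p = 0.0022) and by 0.40 ± 0.05 (adjusted p = 0.00306) and fell by 0.41 ± 0.05 (adjusted p = 0.00475) in R50, all kept whichever array was left out, and the rise with the drug was 0.21 with quantile normalisation. TYMS, which makes thymidylate, rose with the drug (0.55). TK1, the thymidine salvage kinase, was lower than WT in WT+NU6102 (-0.20) and in CDK2 KO (-0.31), and the former call was lost without either WT array or WT+NU6102 replicate 1 (range -0.24 to -0.16).

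DTL, the substrate receptor that sends CDT1 to degradation, and TIPIN, which steadies stalled forks, went opposite ways with the drug: DTL was lower and TIPIN higher. DTL was at 1.78 and 1.75 in WT, 1.34 and 1.33 in WT+NU6102, 1.99 and 1.96 in CDK2 KO and 1.35 and 1.39 in R50. CDK2 KO was highest, and WT+NU6102 and R50 were the lowest and did not overlap. DTL fell by 0.43 ± 0.04 (adjusted p = 0.00101) with NU6102 and by 0.40 ± 0.04 (adjusted p = 0.00419) in R50, kept whichever array was left out. It rose in CDK2 KO by 0.21 ± 0.04 (adjusted p = 0.0187), lost when any WT or CDK2 KO array was left out (range 0.19 to 0.23).

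TIPIN was at 3.79 and 3.83 in WT, 4.30 and 4.30 in WT+NU6102, 3.81 and 3.70 in CDK2 KO and 3.12 and 3.16 in R50, and WT and CDK2 KO overlapped between the other groups. It rose by 0.49 ± 0.05 (adjusted p = 0.00127) with the drug and fell by 0.67 ± 0.05 (adjusted p = 0.00163) in R50, and both calls held whichever array was left out. After POLE2 it was the gene of the set furthest below WT in R50. Its promoter stretch is the one with E2F letters that read alike on both strands, and its probe lies at chr15:66629213-66629272 (hg19).

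R50 was also set against CDK2 KO, its companion on slide 1, and against WT+NU6102. Against CDK2 KO, 37 genes were lower and 1, TK1, higher, beside 24.9% lower and 17.4% higher among all genes, with a median of -0.37 against -0.06. Both R50 arrays lay below both CDK2 KO arrays in 44 genes (88%), beside 44.8% of all genes. CDC6 was lowest, at -0.95 ± 0.07 (adjusted p = 0.000436), followed by POLE2 at -0.83 ± 0.06 (adjusted p = 0.000581), RRM1 at -0.81 ± 0.05 (adjusted p = 0.000269), and GINS3 and RFC5 at -0.74 and -0.74. With quantile normalisation 34 genes were lower and 2, TK1 (0.22) and PRIM1 (0.19), higher, beside 3066 lower and 2866 higher among the 14216 genes. The median was then -0.33 against -0.02, and MCM5, LIG1 and RPA2 were not called. The fit to the 4 arrays of slide 1 alone had 32 genes lower and 0 higher, with no share over all genes given here. The rise of TK1, 0.18 ± 0.05 (adjusted p = 0.0334), was lost there and without any WT, CDK2 KO or R50 array (range 0.17 to 0.19). Leaving out each of the 8 arrays in turn kept 25 of the 38 calls.

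Against WT+NU6102, 37 genes were lower in R50 and 1, PRIM1, was higher, beside 35.2% and 26.4% of all genes, with a median of -0.48 against -0.07. Log2 fold changes of -1 or below were reached by 6 genes: TIPIN (-1.16), CDC6 (-1.13), RRM2 (-1.12), GINS3 (-1.06), ORC6 (-1.02) and FEN1 (-1.02). Of the 38 calls, 35 held whichever array was left out. POLE2, DTL, MCM2, MCM5 and MCM7, which were low in both groups, were not called, with log2 fold changes of -0.04, 0.03, 0.08, -0.04 and -0.05. The call of PRIM1, 0.15 ± 0.05 (adjusted p = 0.0413), was lost whichever of the 8 arrays was left out (range 0.12 to 0.18) and with normexp (0.13). With quantile normalisation 35 genes were lower and 5 higher, beside 4460 lower and 4252 higher among the 14216 genes. The median was then -0.31 against -0.03 over all genes. The 5 genes called higher were MCM2 (0.25), PRIM1 (0.37), LIG1 (0.33), RPA3 (0.21) and DTL (0.15). The doses and times of exposure differ between the groups, and they lay on different slides.

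The pair of comparisons that lie within a slide, acute NU6102 on slide 2 and R50 with CDK2 KO on slide 1, share no array. In 40 of the 50 genes (80%) the log2 fold changes of these comparisons had opposite signs, as they did in 55.67% of all 14216 genes. Of the 50, 39 lay above 0 with acute NU6102 and 45 below 0 in R50 against CDK2 KO. Many opposite signs therefore follow from the lean of each comparison and are not a separate result. Across the 50 genes Pearson's r was -0.25 and Spearman's rho was -0.26, and across all genes -0.19 and -0.13, given as a description since genes are not independent samples. RRM2, at 1.10 and -0.61, CDC6, at 0.82 and -0.95, and GINS3, at 0.70 and -0.74, were higher with the drug and lower in R50. POLE2, DTL, MCM2, MCM5 and MCM7 were lower in both.

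**Figure D4:**
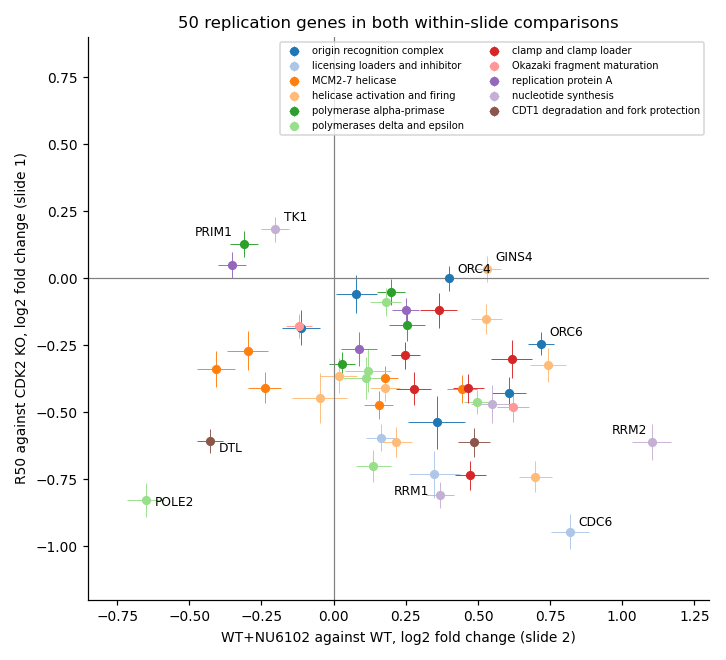
Log2 fold change of each of the 50 genes in WT+NU6102 against WT (horizontal axis) and in R50 against CDK2 KO (vertical axis), with bars of 1 standard error, coloured by role. Most genes lie at the lower right, higher with acute NU6102 and lower in R50 than in CDK2 KO; POLE2, DTL and some MCM genes lie at the lower left.

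A wider list of 48 replication genes beyond the 50, covering further helicase and fork factors, chromatin assembly at forks and nucleotide metabolism, was counted in the same way. In WT+NU6102, 24 were higher and 11 lower than in WT (50% and 22.9%, beside 30.3% and 24.2% of all genes; median 0.20). In CDK2 KO 10 were higher and 3 lower (20.8% and 6.25%, beside 20.1% and 17%; median 0.06), so that the share called higher lay near that of all genes. In R50 1 was higher and 20 were lower (2.08% and 41.7%, beside 12.6% and 16.1%; median -0.16). The gene higher in R50 was RRM2B, the p53-regulated small subunit of ribonucleotide reductase, at 0.38, and those lower in CDK2 KO were CTPS1, SAMHD1 and TOP1, at -0.68, -0.27 and -0.26. Against CDK2 KO, CTPS1 (0.35) and LRWD1 (0.23) were higher and 25 genes lower in R50 (4.17% and 52.1%, beside 17.4% and 24.9%; median -0.28). These genes and those of the following lists were named after their values were seen.

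Of 20 genes of G2 and mitosis, 7 were higher in WT+NU6102 (35%, near the 30.3% of all genes), among them CDK1 (0.80) and UBE2C (0.59), and CCNB2, HMMR and KIF20A were lower, at -0.21, -0.36 and -0.38 (15%, beside 24.2%). In CDK2 KO 13 were lower and 0 higher (65% lower, beside 17%; median -0.28), and in R50 7 were lower and 0 higher (35% lower, beside 16.1%; median -0.17). Against CDK2 KO, BIRC5, CCNB2 and KIF20A were higher in R50, at 0.33, 0.27 and 0.29, and 0 were lower (15% higher, near the 17.4% of all genes; median 0.06).

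Of 10 regulators of the G1/S transition, 8 were higher in WT+NU6102 and CDKN1B, which encodes the CDK inhibitor p27, was lower (-0.55), which is 80% and 10% beside 30.3% and 24.2% of all genes. Both E-type cyclins, which activate CDK2, were higher in WT+NU6102 and in CDK2 KO, with CCNE1 at 1.17 and CCNE2 at 1.37 in WT+NU6102 and at 0.73 and 1.47 in CDK2 KO. CDK2 KO further had CDKN1A, E2F2 and RB1 higher, at 0.33, 0.42 and 0.87, and CDKN1B, E2F1 and RBL1 lower, at -0.51, -0.24 and -0.24, which makes 50% higher and 30% lower beside 20.1% and 17%. In R50, CDKN1A (0.32) and RB1 (0.60) were higher than in WT, and CCNE1 (-0.33), E2F2 (-0.22) and RBL1 (-0.27) lower, which is 20% and 30% beside 12.6% and 16.1%. The part of these lists in the results on the replication genes was not tested.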

How the data were processed

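Expression was measured with 8 one-colour Agilent arrays, 2 in each of 4 groups. The authors' scanner software, Agilent Feature Extraction 11.5.1.1, wrote the deposited intensity of each spot, which is background-subtracted but not scaled across arrays. A table of log2 values for 28719 probes, which the authors made in GeneSpring GX, served as an alternative; it equals log2 of that intensity less a constant per array, centred on each probe's median. Positions in hg19 come from the files of WT and WT+NU6102, since those of CDK2 KO and R50 name no build.

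In R 4.3.3 with the data.table package, version 1.17.8, control and outlier spots were dropped, log2 signals were expressed relative to the 75th percentile of their array, and repeated spots were averaged. A probe entered the test (28677 of 50599) if some group had it well above background on both of its arrays; 24489 of these were so on all 8, and 31 others had no usable spot on an array. Each array had 32376 to 36206 spots well above background and 0 saturated ones. Precision is limited by the small number of arrays. The limma 3.58.1 fit covered all 4 groups with a shared spread, and p-values were adjusted by Benjamini-Hochberg over all tested probes, with thresholds of 0.05 for comparisons and 0.001 for the F-test. Shares over all genes use the brightest probe of each of 14216 protein-coding genes. The labels call the replicates biological, and p-values measure the spread between these arrays.

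The 50 genes, their roles and the other lists were chosen with earlier results of these data known. Array values are given for the called gene with the largest absolute change in each role and comparison with WT, and for CDC6, CDT1, GMNN, MCM2, PCNA and RRM2. Alternatives were normexp (offset 50), quantile normalisation, filters on dim probes removed or made stricter, the authors' values, a trended prior, a replicate block, the ANOVA and t-test of the study's methods, a minimum fold change, the mean of a gene's probes, each slide alone, and leaving out each array. The fit was tested on simulated data. Promoter searches and figures used Python 3.11.15 with pandas 2.3.3, numpy 2.4.6 and matplotlib 3.10.9.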

Additional observations from a re-analysis of the deposited data

How the results depend on the processing

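Of 166 called differences of single genes, 161 kept their call with normexp, 143 with quantile normalisation, 107 with no filter on dim probes, 166 with a stricter one, 164 with the authors' values, 166 with a trended prior and 164 with the mean of all probes. With quantile normalisation GINS2 in WT+NU6102 turned to -0.044, and 20 genes were higher and 11 lower there against 31 and 8. Among the 14216 genes 3624 were then higher and 3780 lower. The cause was not tested. With no filter the counts of called genes were 25 of 50 in WT+NU6102, 9 in CDK2 KO and 10 in R50 against 39, 19 and 32, and 0 by the F-test against 22, in a fit with more probes tested. The trended prior gave 29 genes in CDK2 KO and 43 by the F-test. A minimum absolute log2 fold change of 1 left 1 gene in WT+NU6102 and 0 in CDK2 KO and in R50. It left 0 for R50 with CDK2 KO and 6 for R50 with WT+NU6102. Of the 14216 genes it left 167 higher and 790 lower in WT+NU6102, 406 and 332 in CDK2 KO, and 269 and 123 in R50. For R50 with CDK2 KO it left 428 and 364, and for R50 with WT+NU6102 1205 and 487. The methods' ANOVA called 8 genes at 0.001, and the methods' t-test called 32 in R50 unadjusted and 0 after Benjamini-Hochberg adjustment. Shares over all genes are not given for the unfiltered fit, the trended prior, the ANOVA or the t-test. Their counts therefore cannot be set against a background.

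Leaving out each array in turn gave 0 to 3 genes by the F-test, 25 to 37 in WT+NU6102, 10 to 17 in CDK2 KO and 13 to 28 in R50, 27 to 36 for R50 with CDK2 KO and 35 to 38 for R50 with WT+NU6102. Arrays with the same replicate number did not deviate together over the tested probes (correlations of -0.028 to 0.045). Noise of single probes can hide shared handling, so these values do not exclude a pairing by number. A replicate block gave 1 gene by the F-test, 37 in WT+NU6102, 18 in CDK2 KO, 29 in R50, and 38 in each of the other comparisons. Fitted with the arrays of its slide alone, WT+NU6102 had 25 genes higher and 7 lower than WT, and R50 had 32 lower and 0 higher than CDK2 KO. Shares over all genes are not given for the slide fits, the replicate block or the fits without an array. Their counts cannot be set against a background.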
